A study of Mus musculus with 4 samples.

Results

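The genes described are 8 endothelial receptors and markers: the receptors Kdr, Flt1, Tek and Tie1, the receptor phosphatase Ptprb, the co-receptor Eng, the junction protein Pecam1 and the secreted factor Vwf. They were taken as every probe set whose only gene symbol is one of these names. That gave 11 probe sets, out of 12422 that are not controls. These belong to 8 of the 8251 genes with a symbol of their own. Of the 8 genes, 6 were chosen for what they encode. Vwf and Ptprb were chosen by their measured differences between the groups in these same data as well, so their differences are given as a description with no test.

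The arrays hold total RNA of murine skeletal muscle, and the series title names the neuromuscular junction, where a motor nerve meets a muscle fibre. The group coded J has 2 arrays (J 1a and J 1c) and the group coded NJ has 2 arrays (NJ 1a and NJ 1d). The titles of all 4 carry a time of 0 h and the mark Ctr, and the codes J and NJ are not spelled out. The labels give no strain, age, treatment or dissection and name no animals, so the arrays may differ by technical spread alone and p-values measure only the spread of these arrays.

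Endothelial cells line blood and lymph vessels, and capillaries run along every fibre of skeletal muscle. Vascular endothelial growth factor (VEGF) acts on them through Kdr, the main signalling receptor, and Flt1, which binds VEGF tightly and can act as a decoy. Angiopoietins act through Tek, whose relative Tie1 binds no known ligand with high affinity and modulates Tek. Ptprb removes phosphate from Tek and from the VE-cadherin junction complex. Eng, endoglin, presents ligands of the BMP and TGF-beta family to the endothelial receptor Acvrl1. Pecam1 holds neighbouring endothelial cells together and is also found on platelets and leukocytes. Vwf is a blood clotting protein made in endothelial cells and megakaryocytes.

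The 8 genes did not differ between J and NJ in one common direction. Vwf and Ptprb, picked by their differences, are part of that mix. Without them, 4 of 5 tested genes were lower in J at their brightest probe set, and 1 (Pecam1) was higher. Of all genes tested, 48.8% were higher. The dimmer probe sets of Flt1 and Tie1 were higher in J, against their brighter ones. Both J signals lay below both NJ signals for Ptprb and for the brighter probe set of Tie1. They lay above both NJ signals for the brighter probe set of Vwf and for the dimmer probe sets of Tie1 and Flt1. The probe sets of Tie1 thus went opposite ways. No share over all probe sets is given for deposited signals, so these separations have no background beside them. After quantile normalisation the groups of both dimmer probe sets overlapped. Of the 9 tested probe sets, 33.3% then did not overlap, against 26.5% of all probe sets tested. These include Vwf and Ptprb, which were picked for their differences. Kdr was low on one J array alone, and Eng, Pecam1 and the brighter probe set of Flt1 had overlapping groups. No tested probe set of Kdr, Flt1, Tie1, Eng or Pecam1 passed the test. Of all 9316 probe sets tested, 0 were called higher and 0 lower, so this does not set these genes apart. Tek was too dim to be tested. Differences below are J minus NJ on a scale of log2(signal + 32) after quantile normalisation, ± the standard error that limma gives with 2 arrays a group. Adding 32 understates the change of dim genes. In bulk tissue, fewer endothelial cells and less RNA per cell cannot be told apart.

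The arrays did not pair up by group. Over all probe sets, Spearman's correlation between arrays was 0.775 for both J arrays and 0.824 for both NJ arrays, but 0.906 for J 1c with NJ 1d. Array J 1a correlated least with the rest, at 0.767 to 0.775. In the deposited table the values of J 1a and NJ 1a have full digits, while those of J 1c and NJ 1d stop at 1 decimal, so the number format splits each group. Results are therefore also given as J minus NJ within the full-digit pair (both 1a arrays) and within the rounded pair (J 1c minus NJ 1d). Of 13 endothelial marker genes, the 8 here included, 12 were on the array by name and 10 of these passed the brightness filter. The table has no detection calls, and 3 of 4 epithelial genes passed it too, so passing it does not show that a transcript was present.

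The plot of signals by array shows all 11 probe sets. Tests were run on the 9316 probe sets whose mean log2 value lay above the 25th percentile, 7.22. Of the 11 probe sets, 9 passed, covering 7 genes. The only probe set of Tek (mean 7.10) and the dimmer one of Vwf did not.

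**Figure D1:**
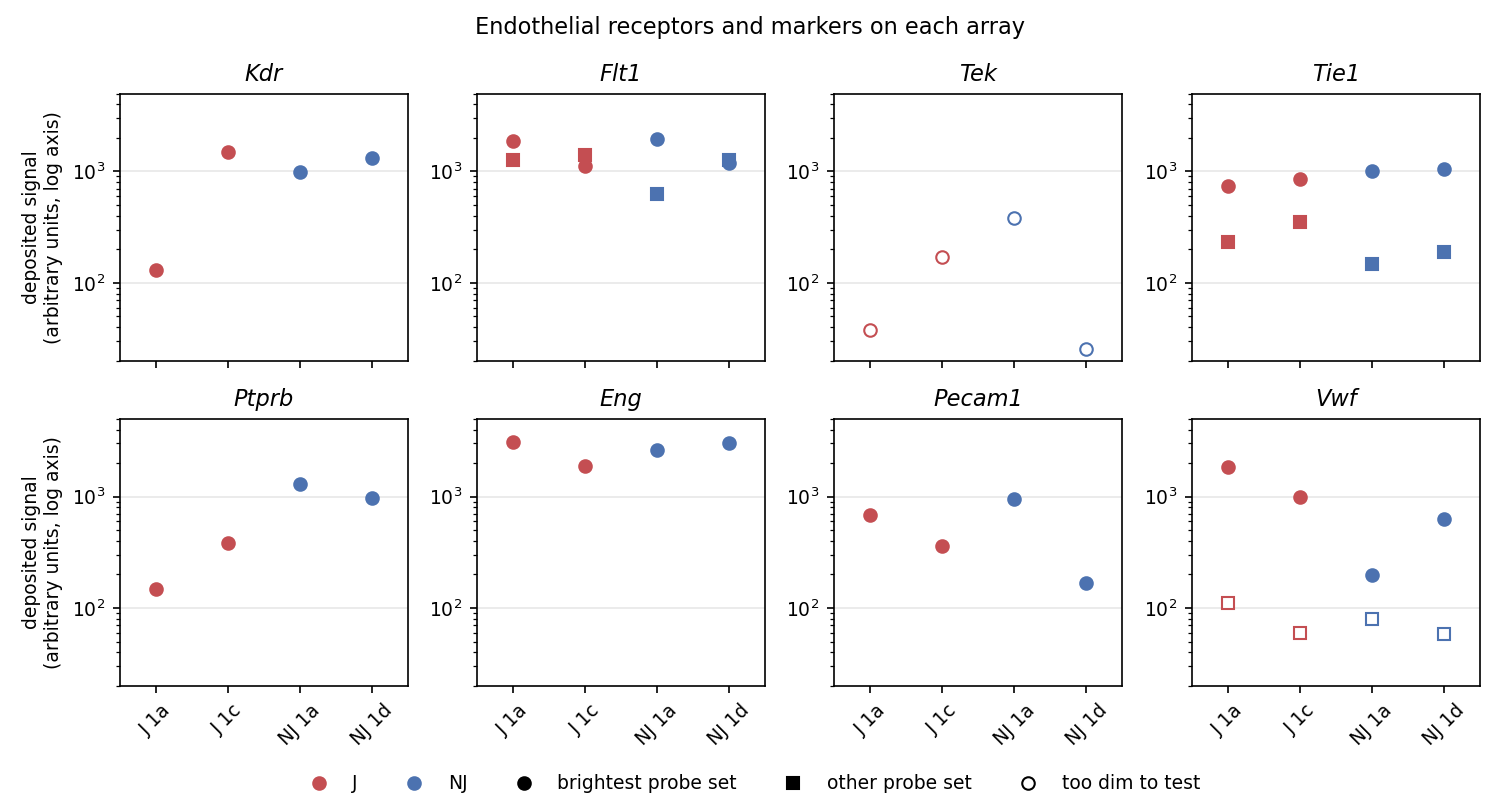
Deposited signal (arbitrary units, log axis) of every probe set of the 8 genes on each array, J in red and NJ in blue, with 1 point per array. Circles are the brightest probe set of a gene, squares its other probe set and open symbols those too dim to test. Kdr has 1 low J array. The groups lie apart for Ptprb and the brighter probe set of Vwf. They also do for both probe sets of Tie1 (in opposite directions) and the dimmer one of Flt1. After normalisation the groups of the dimmer probe sets of Tie1 and Flt1 overlap. No share over all probe sets is given for deposited signals. Tek has 1 higher and 1 lower array in each group.

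Among the VEGF receptors, Kdr (probe set 104265_at) had signals of 129 and 1480 on the J arrays against 987 and 1331 on the NJ arrays. One J array was the lowest of the 4 and the other the highest, so the groups overlapped. The difference was −1.40 ± 0.97, with a 95% interval of −3.58 to 0.77 (limma, adjusted p = 0.9998 over all probe sets tested). It came from array J 1a alone: it was −2.87 in the full-digit pair and 0.06 in the rounded pair. Without J 1a it turned to 0.30.

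Flt1 had 2 probe sets. The brighter one (98453_at) had signals of 1856 and 1124 on the J arrays against 1945 and 1177 on the NJ arrays. Its values followed the array pairs and not the groups, with both 1a arrays high and the other 2 low. The difference was −0.11 ± 0.48, with a 95% interval of −1.19 to 0.96. The dimmer one (98452_at) had signals of 1276 and 1389 on the J arrays against 621 and 1268 on the NJ arrays, with NJ 1a the low array. These deposited signals did not overlap, while the normalised values did, and the difference was 0.53 ± 0.53 (95% interval −0.65 to 1.71). Neither passed (limma, adjusted p = 0.9998 for each). The dimmer probe set differed by 1.03 in the full-digit pair and by 0.03 in the rounded pair. The intervals of both VEGF receptors include differences of a whole log2 unit, so the data do not show that their levels were alike in J and NJ.

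The promoters of Kdr and Flt1 are shown because both receptors bind VEGF while their signals ran differently over the 4 arrays. Each runs from 250 bases before to 50 bases after a transcription start in RefSeq (build GRCm38.p6), 5′ to 3′ on the gene's strand. Capitals mark GGAA, the core of sites for ETS factors, which are transcription factors common in endothelium, or TTCC, the same word on the other strand. The Kdr window is chr5:75978406-75978705 and that of Flt1 is chr5:147725962-147726261, both on the minus strand.
Kdr: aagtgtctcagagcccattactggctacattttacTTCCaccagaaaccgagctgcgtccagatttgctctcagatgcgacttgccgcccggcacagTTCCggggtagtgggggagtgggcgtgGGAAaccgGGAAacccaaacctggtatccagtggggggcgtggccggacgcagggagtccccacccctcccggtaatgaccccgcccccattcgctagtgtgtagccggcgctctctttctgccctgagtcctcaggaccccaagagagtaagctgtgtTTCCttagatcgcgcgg
Flt1: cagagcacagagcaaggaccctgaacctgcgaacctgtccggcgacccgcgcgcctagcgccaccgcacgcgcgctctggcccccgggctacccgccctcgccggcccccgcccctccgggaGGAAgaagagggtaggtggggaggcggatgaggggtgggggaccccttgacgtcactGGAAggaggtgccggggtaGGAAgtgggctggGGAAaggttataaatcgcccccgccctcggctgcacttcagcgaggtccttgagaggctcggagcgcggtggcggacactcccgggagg

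The angiopoietin receptor Tek (102720_at) had signals of 37.9 and 169 on the J arrays against 385 and 25.6 on the NJ arrays. Each group held 1 high and 1 low array. NJ 1d had the lowest deposited signal and J 1a the lowest normalised value. The difference was −0.47 as a value with no test, −2.64 in the full-digit pair and 1.69 in the rounded pair, so the pairs went opposite ways.

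Tie1 had 2 probe sets that went opposite ways. The brighter one (161184_f_at) had signals of 747 and 850 on the J arrays against 1009 and 1050 on the NJ arrays, with no overlap. It differed by −0.40 ± 0.50 (95% interval −1.52 to 0.71), and by −0.48 and −0.33 in the 2 array pairs. The dimmer one (99936_at) had signals of 233 and 351 on the J arrays against 147 and 189 on the NJ arrays, so that its deposited signals did not overlap either but lay in the other order. After normalisation its groups did overlap, and it differed by 0.59 ± 0.80 (95% interval −1.22 to 2.39), by 0.53 and 0.65 in the pairs. Neither passed (limma, adjusted p = 0.9998 for each). The suffix _f_at marks probe sets whose probes may also match related sequences. The data therefore give no direction for the gene.

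The promoters of Tek and Tie1, the other receptor pair, are marked in the same way. The Tek window is chr4:94739039-94739338 on the plus strand, and the Tie1 window is chr4:118489800-118490099 on the minus strand.
Tek: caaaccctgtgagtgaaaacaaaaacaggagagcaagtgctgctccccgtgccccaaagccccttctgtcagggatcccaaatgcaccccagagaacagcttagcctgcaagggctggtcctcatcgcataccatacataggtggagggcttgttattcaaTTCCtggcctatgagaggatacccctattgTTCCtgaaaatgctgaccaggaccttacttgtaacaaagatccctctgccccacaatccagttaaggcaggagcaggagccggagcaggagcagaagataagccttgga
Tie1: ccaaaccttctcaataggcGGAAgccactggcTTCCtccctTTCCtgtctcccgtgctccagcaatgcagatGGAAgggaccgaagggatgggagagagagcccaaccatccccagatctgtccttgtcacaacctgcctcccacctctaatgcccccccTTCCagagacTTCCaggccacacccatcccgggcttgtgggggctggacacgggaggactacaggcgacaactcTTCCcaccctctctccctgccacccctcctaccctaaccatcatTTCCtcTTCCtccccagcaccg

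RefSeq's promoter table held 5 of the 8 genes, these 4 and Eng. Both strands were searched for each word. GGAA occurred 5 times in the Kdr window, 4 times in Flt1, 2 times in Tek, 9 times in Tie1 and 4 times in Eng. Of all 32851 promoters of 300 bases in the table, 96.0% hold it, with a median of 3 matches, so its presence does not set these genes apart. The longer ETS word CCGGAAG, which contains GGAA, occurred in 0 of the 5 and in 8.86% of all promoters. Another ETS word, ACAGGAA, which also contains GGAA, occurred once, in Tie1, against 8.67% of all promoters. The GATA factor word TGATAA was in 0 of the 5 (9.05% of all), and the TATA box word TATAAA occurred in Flt1 alone (13.6% of all). A match is a string of letters and no evidence of binding.

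Ptprb (92289_at) had signals of 149 and 382 on the J arrays against 1298 and 967 on the NJ arrays. Both J arrays were below both NJ arrays, and J 1a was the lowest. The difference was −2.17 ± 0.72, so that J was at 0.223 of the NJ level on this scale. It was −3.11 in the full-digit pair and −1.23 in the rounded pair, and lay between −2.85 and −1.46 with each array left out in turn. Ptprb was picked for this difference, so the shared sign of these values adds no support to it.

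The brighter probe set of Vwf (103499_at) had signals of 1859 and 987 on the J arrays against 197 and 634 on the NJ arrays. Both J arrays were above both NJ arrays, with NJ 1a far below the other 3. The difference was 1.87 ± 0.72, or 3.67-fold on this scale, and lay between 0.99 and 2.71 with each array left out. It was 3.24 in the full-digit pair against 0.50 in the rounded pair. The dimmer probe set (97052_at) had signals of 111 and 60.1 on the J arrays against 78.9 and 58.6 on the NJ arrays, with overlapping groups and a difference of 0.12. The probe sets of Vwf thus differed in size of change, and the dimmer one was too dim to test. Vwf, too, was picked for the difference of its brighter probe set, and the shared sign of the values of that probe set adds no support either.

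Eng (100134_at) had signals of 3058 and 1871 on the J arrays against 2618 and 3001 on the NJ arrays. J 1a was the highest array and J 1c the lowest, with both NJ arrays between them. The difference was −0.21 ± 0.42 (95% interval −1.14 to 0.73), at 0.26 in the full-digit pair and −0.68 in the rounded pair. Without J 1c it turned to 0.21.

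Pecam1 (97830_at) had signals of 685 and 363 on the J arrays against 942 and 167 on the NJ arrays. Both NJ values lay outside both J values, one above and one below. The difference was 0.16 ± 0.82 (95% interval −1.67 to 1.9996), at −0.51 in the full-digit pair and 0.84 in the rounded pair. It turned to −0.19 without J 1a and to −0.82 without NJ 1d. Neither Eng nor Pecam1 passed (limma, adjusted p = 0.9998 for each).

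**Figure D2:**
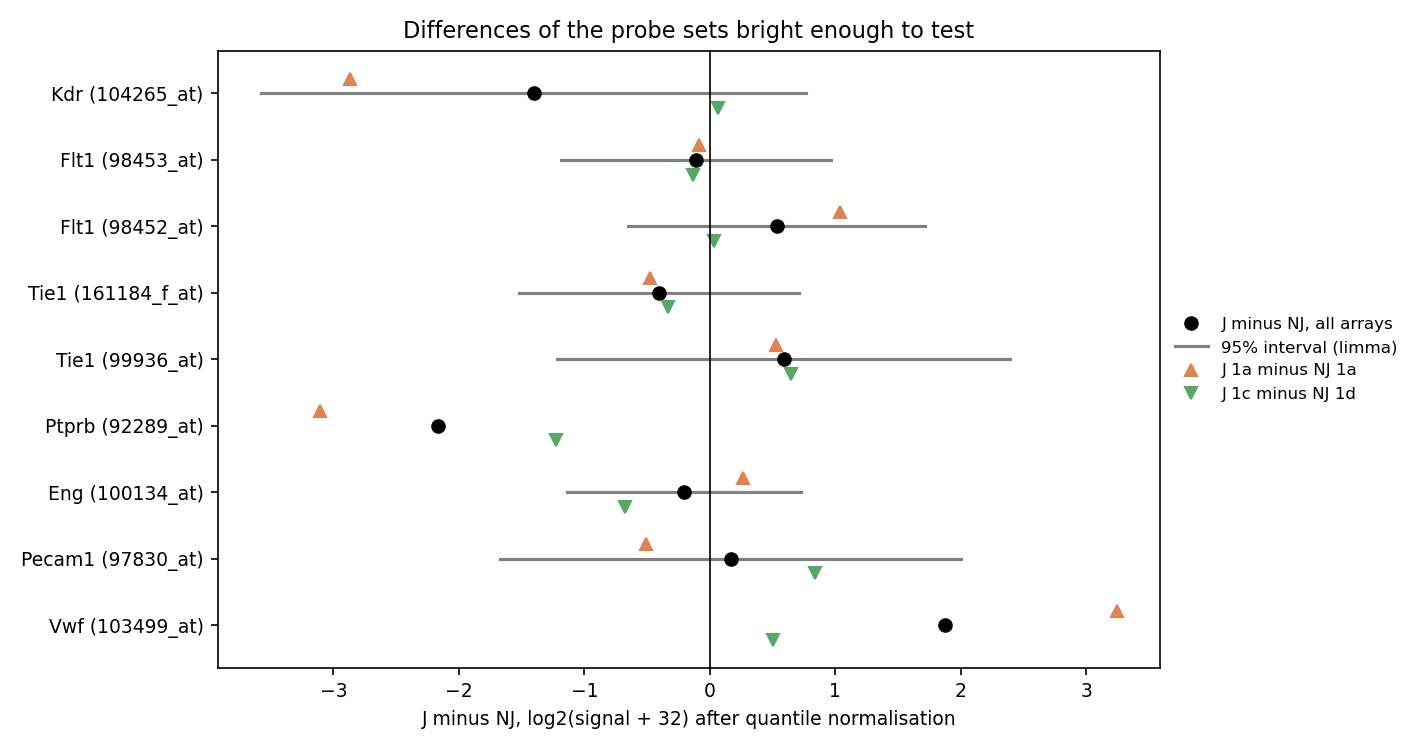
Difference J minus NJ on the log2(signal + 32) scale for the 9 probe sets bright enough to test. Black points are the difference over all 4 arrays, grey bars its 95% interval in limma (not drawn for Vwf and Ptprb, which were picked for their differences), and triangles the differences within each array pair. Every interval drawn includes 0. For Kdr, Vwf, Ptprb and the dimmer Flt1 probe set, the full-digit pair differs by over a log2 unit and by more than the rounded pair.

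Over all 9316 probe sets, limma at a Benjamini-Hochberg adjusted p under 0.05 called 0 higher in J (0%) and 0 lower (0%). At an unadjusted p under 0.05 it gave 116 higher and 82 lower, together 2.13% of all. Of the 7 tested probe sets of Kdr, Flt1, Tie1, Eng and Pecam1, limma called 0 at the adjusted and 0 at the unadjusted threshold, with unadjusted p from 0.179 to 0.844. A fit with a term for the number format called 4 probe sets higher (0.0429%) and 4 lower (0.0429%), none of them among these 7. Their lowest limma adjusted p under any of the alternatives run was 0.412, for Kdr, whose adjusted p under the alternatives reached 0.9999. With 2 arrays a group, the smallest two-sided p of an exact permutation test is 0.333, so none was run on single genes. The half-width of the 95% interval for these 7 probe sets was 0.93 to 2.17 on the log2 scale, with no allowance for the number of probe sets tested. Over all probe sets, differences of up to 3.43 were not called after adjustment.

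Counting probe sets, 4 of the 9 tested were higher in J, against 49.2% of all, and 5 were lower, against 50.8%. The J values were both above the NJ values for 1 of the 9, against 13.6% of all probe sets tested, and below them for 2 of the 9, against 12.9%. Together this is 33.3% of the 9, against 26.5% of all. Of the 3 probe sets that did not overlap, 2 were those of Vwf and Ptprb, which the choice of genes put there, and the third was the brighter probe set of Tie1.

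With the brightest probe set standing for each gene, 2 of 7 genes (Pecam1 and Vwf) were higher in J and 5 lower, with a median difference of −0.21. Over the 6773 genes tested in the same way, 48.8% were higher and the median was −0.01. Without Vwf and Ptprb, 1 of 5 was higher and the median stayed at −0.21. The median was −0.48 in the full-digit pair and −0.14 in the rounded pair. It was 0.21 without J 1c, with 4 of 7 genes higher. With the mean of all tested probe sets of a gene in place of the brightest it was 0.09, again with 4 of 7 higher. The sign of the median thus depended on 1 array and on the choice of probe set.

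Among the 5 tested genes not picked for their differences, the sign of the difference was the same in both array pairs for 2 (Flt1 and Tie1), or 40%, against 49.4% of all probe sets tested. Kdr, Eng and Pecam1 changed sign between the pairs. Of the same 5 genes, 2 spanned over 2 log2 units between the highest and the lowest array, Kdr (3.40) and Pecam1 (2.03). Over all genes tested, 23.3% did. Flt1 (0.85), Eng (0.83) and Tie1 (0.58) spanned less, and the median span of the 5 was 0.85. Ptprb and Vwf had 1 sign in both pairs and spanned 3.11 and 3.24, which their choice for large differences bears on.

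The genes also differed in which array was extreme. Relative to each gene's own mean, J 1a was lowest for Kdr (−2.40), Ptprb (−1.83) and Tie1 (−0.33), and highest for Vwf (1.40) and Eng (0.31). NJ 1a was lowest for Vwf (−1.84) and highest for Ptprb (1.28), Pecam1 (0.93) and Flt1 (0.41). The summed deposited signal of the 7 genes was 8483 and 7056 on the J arrays against 8995 and 8327 on the NJ arrays, a total in which the probe set of Eng weighs most. Without the picked Vwf and Ptprb the sum was 6475 and 5687 on the J arrays against 7501 and 6726 on the NJ arrays. Both J sums then lay below both NJ sums, with Eng still weighing most, and this was not tested.

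Likeness between genes was measured as the root mean square distance between their centred log2 values over the 4 arrays. Over the 21 pairs of the 7 genes it ran from 0.29 to 2.33 with a median of 1.29. Pairs with Vwf or Ptprb are among these, so the choice of these genes for large differences bears on the range and the median. Among the 5 genes not picked it ran from 0.29 (Flt1 and Eng) to 1.87 (Kdr and Pecam1). No distance over pairs of all genes is given, so these values have no background beside them. The closest pair was Flt1 and Eng, which both varied little, and the farthest was Ptprb and Vwf, which were picked for large differences and moved opposite ways. Kdr and Flt1, which share VEGF as a ligand, lay 1.66 apart. Kdr and Ptprb lay 0.83 apart, both with J 1a as the lowest array.

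**Figure D3:**
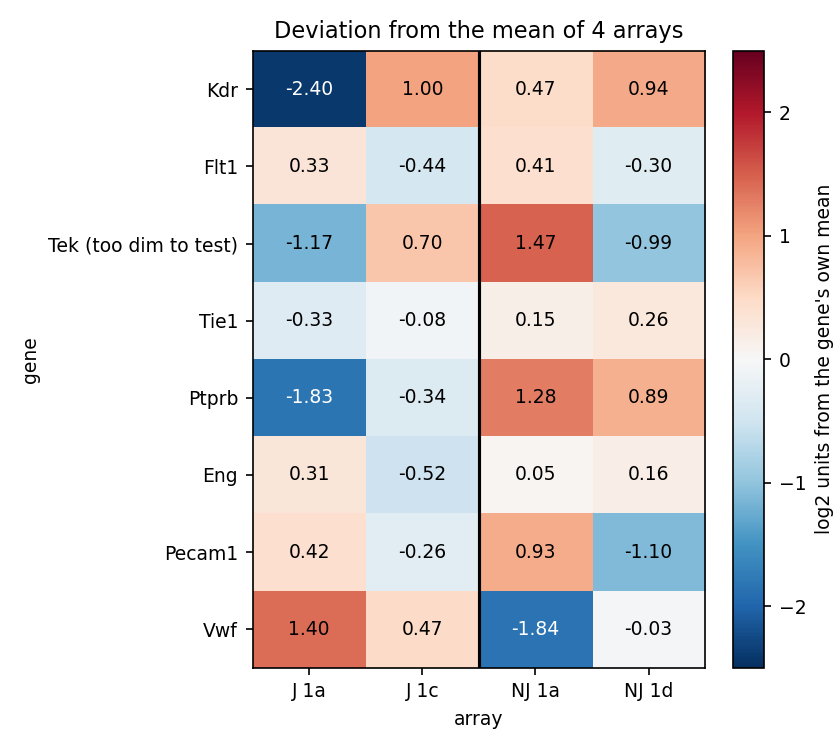
Deviation of each gene's brightest probe set from its own mean over the 4 arrays, in log2 units after quantile normalisation, with genes down the page and arrays across, J left of the black line and NJ right of it. Red is above the gene's mean and blue below. Kdr and Ptprb are lowest on J 1a at −2.40 and −1.83, Vwf is lowest on NJ 1a at −1.84, and no array is low or high for all genes.

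For the genes that spanned over 2 log2 units, the nearest profiles among all tested probe sets with a symbol were those of genes outside the group. They were Agfg1 (distance 0.087) and Norad (0.095) for Kdr, Ptprv (0.16) and Nop58 (0.19) for Ptprb, Syt7 (0.046) and Sox15 (0.058) for Pecam1, and Atf6 (0.075) and Cdc73 (0.10) for Vwf. Agfg1, for example, had signals of 74.3 and 931 on the J arrays against 764 and 879 on the NJ arrays, with J 1a low as for Kdr. With 4 arrays many genes share a profile, so this describes the arrays and no relation between genes.

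The ligands, partner receptors and signalling proteins of these receptors showed no common direction either. Of 26 genes listed, 20 had a probe set and 16 were tested, 10 of them higher in J and 6 lower, at a median of 0.07 (all genes, −0.01). The median turned to −0.22 without J 1a and to −0.05 with the brightness filter at the median level. No gene of this list passed (limma, adjusted p under 0.05, 0 of 16 against 0% of all probe sets), and 0 of 16 had an unadjusted p under 0.05, against 136 of the 6773 genes tested, so a count of 0 does not set the list apart. By the brightest probe set, the J arrays were both above the NJ arrays for Vegfd and Angpt2, and below them for Vegfb and Acvrl1. Together these are 25% of the tested genes of the list, against 26.6% of all genes tested.

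Among VEGF ligands, Vegfd, which acts on Kdr in human and mainly on Flt4 in mouse, had signals of 282 and 292 on the J arrays against 114 and 51.4 on the NJ arrays, a difference of 1.44 ± 0.76. It was higher in J in both array pairs, by 1.07 and 1.81. Over all genes tested, 49.6% had the same sign in both pairs. Vegfb, a ligand of Flt1, had signals of 3920 and 4062 on the J arrays against 4765 and 5554 on the NJ arrays, a difference of −0.31 ± 0.35. Vegfa, the ligand of Kdr and Flt1, differed by −0.30 ± 0.96, with signals of 129 and 254 on the J arrays against 98.8 and 483 on the NJ arrays. Vegfc, a ligand of Flt4, differed by −0.78 ± 0.86 and Pgf, placental growth factor, by 0.04 ± 0.81. Ligands of one receptor family thus pointed both ways, with overlapping groups for Vegfa, Vegfc and Pgf. Flt4, the receptor of lymphatic endothelium, differed by 0.39 ± 0.81 at its brighter probe set and by −0.34 ± 1.002 at the other. The VEGF co-receptor Nrp1 differed by −0.05 ± 0.36 and −0.02 ± 0.71 at its 2 probe sets.

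Angpt1, the activating ligand of Tek, had signals of 528 and 102 on the J arrays against 119 and 138 on the NJ arrays, high on J 1a alone, and differed by 0.73 ± 0.87. Angpt2, which can oppose it, had signals of 445 and 253 on the J arrays against 209 and 217 on the NJ arrays and differed by 0.55 ± 0.77. Its difference was 0.99 in the full-digit pair and 0.10 in the rounded pair. Cdh5, the VE-cadherin that Ptprb binds, had signals of 1962 and 1406 on the J arrays against 2145 and 1505 on the NJ arrays. It followed the array pairs, as the brighter probe set of Flt1 did, and differed by −0.14 ± 0.44.

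Acvrl1, the receptor that works with Eng, differed by −0.45 ± 0.39 at its brightest probe set. Its signals were 1575 and 1546 on the J arrays against 2044 and 2114 on the NJ arrays. Its other probe sets differed by 0.06 ± 0.47 and −0.51 ± 0.66, both with overlapping groups. The pathway's transcription factors Smad1 (0.06 ± 0.54 at its brighter and 0.05 ± 1.31 at its dimmer probe set) and Smad5 (0.19 ± 0.86), and its inhibitor Smad6 (0.08 ± 0.56), all had overlapping groups. Bmp10, Tgfb1, Tgfbr1 and Tgfbr2 were too dim to test. Plcg1, a phospholipase that Kdr activates, differed by 0.20 ± 0.59. F8, the clotting factor that Vwf carries in blood, differed by 0.46 ± 0.93 and was brightest on J 1a.

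A longer list of other endothelial genes had 45 of 55 members with a probe set and 35 tested, 17 of them higher in J and 18 lower, at a median of −0.003. Leaving out J 1a moved this median to −0.28 and leaving out J 1c moved it to 0.30. By the brightest probe set, 0 of 35 had an unadjusted p under 0.05 in limma, against 136 of all 6773 genes. Cdh5 is on this list as well. Fli1 and Ets1 are ETS factors of endothelium and blood cells. Fli1 had signals of 268 and 291 on the J arrays against 811 and 648 on the NJ arrays, a difference of −1.35 ± 0.67, while Ets1 had 623 and 465 on the J arrays against 47.7 and 291 on the NJ arrays, a difference of 1.81 ± 0.94. Both had groups that did not overlap, in opposite directions, and neither passed (limma, adjusted p = 0.9998 for each). Of the 35 genes, 22.9% did not overlap, against 26.6% of all genes tested. A second probe set of Ets1, too dim to test, differed by −0.12.

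Of the junction and surface proteins, Cldn5, a tight junction protein, differed by 0.07 ± 0.97, with 1.67 in the full-digit pair and −1.52 in the rounded pair. Emcn, a sialomucin of capillaries and veins, differed by 0.77 ± 0.57 at the brightest and −0.41 ± 0.89 at a second tested probe set. Cd34, found on capillary endothelium and on progenitor cells, differed by −0.05 ± 0.57 at its brighter probe set and by −1.17 ± 0.82 at its dimmer one. Cav1, the coat protein of caveolae, differed by −0.23 ± 0.51 at its brighter probe set and by 1.87 ± 0.75 at its dimmer one, whose signals were 339 and 254 on the J arrays against 52.1 and 53.2 on the NJ arrays. The dimmer probe sets of Cd34, Cav1 and Thbd did not overlap between groups, as was so for 26.5% of all probe sets tested. That of Cav1 had an unadjusted p of 0.033 (limma, adjusted p = 0.9998). Thbd, the anticoagulant receptor thrombomodulin, differed by 0.76 ± 0.68 and −0.67 ± 0.75 at its 2 probe sets, and Edn1, the vasoconstrictor endothelin, by −0.21 ± 0.79 and 0.52 ± 1.12. The brighter probe set of Thbd carries the suffix _f_at, as that of Tie1 does. Probe sets of Emcn, Cav1, Thbd and Edn1 thus disagreed in sign within a gene, as those of Flt1 and Tie1 did. Icam2, Nos3, Selp and Tal1 were too dim to test.

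Markers of other cells in muscle were also compared, and their part in the results above was not tested. Smooth muscle and pericyte genes were higher in J for 9 of 12 tested, with a median of 0.41, and their summed signal was 18112 and 14704 on the J arrays against 15891 and 12009 on the NJ arrays. Their median was 0.03 in the full-digit pair and 0.40 in the rounded pair, 0.02 without J 1a and −0.21 without NJ 1d, so its direction rested on 1 array. Acta2, the actin of smooth muscle, differed by 0.56 ± 0.52. Red cell genes were higher in J for 4 of 4 tested, with a median of 0.41, and all 4 were highest on J 1a. Their median was 1.04 in the full-digit pair and −0.12 in the rounded pair, with 0 of 4 genes of the same sign in both, and −0.17 without J 1a. Their summed signal was 50247 and 22171 on the J arrays against 34871 and 35186 on the NJ arrays, and Hba-a1, a globin, differed by 0.06 ± 0.43.

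Platelets also hold Vwf and Pecam1. Of their genes 5 of 12 were tested, 2 of them higher and 3 lower in J, at a median of −0.40. This median was −0.14 without J 1a, and turned to 0.17 without J 1c and to 0.38 with the brightness filter at the median level. Their summed signal was 1688 and 969 on the J arrays against 1607 and 1354 on the NJ arrays, and Pf4, a platelet chemokine, was too dim to test. Leukocyte genes had 6 of 12 higher in J, with a median of −0.17 (−0.42 to −0.02 with 1 array left out, highest without J 1a and lowest without NJ 1a) and a summed signal of 7154 and 6434 on the J arrays against 8234 and 6475 on the NJ arrays. Ptprc, the common leukocyte phosphatase, was too dim to test at each of its probe sets. Muscle fibre genes had 7 of 18 higher, with a median of −0.23, and share Des with the smooth muscle and pericyte list. Their median was −0.59 on the deposited scale, −0.66 with median centring and 0.07 without J 1c. The creatine kinase Ckm differed by −0.05 ± 0.46 at its brighter and −0.16 ± 0.76 at its dimmer probe set, and Acta1, the actin of the fibre, by 0.24 ± 0.53. Acta1 had deposited signals of 207533 and 32990 on the J arrays against 123803 and 87672 on the NJ arrays, lowest on J 1c. The normalised values behind its difference ran otherwise, with J 1c the highest array. They were 16.58 and 16.64 on the J arrays against 16.44 and 16.30 on the NJ arrays. The largest deposited signal of any probe set was 41086 on J 1c, against 125534 to 238288 on the other arrays. Epithelial genes, not expected in muscle, had 2 of 3 higher and a median of 0.06, which was −0.76 without J 1a and −0.03 with median centring.

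**Figure D4:**
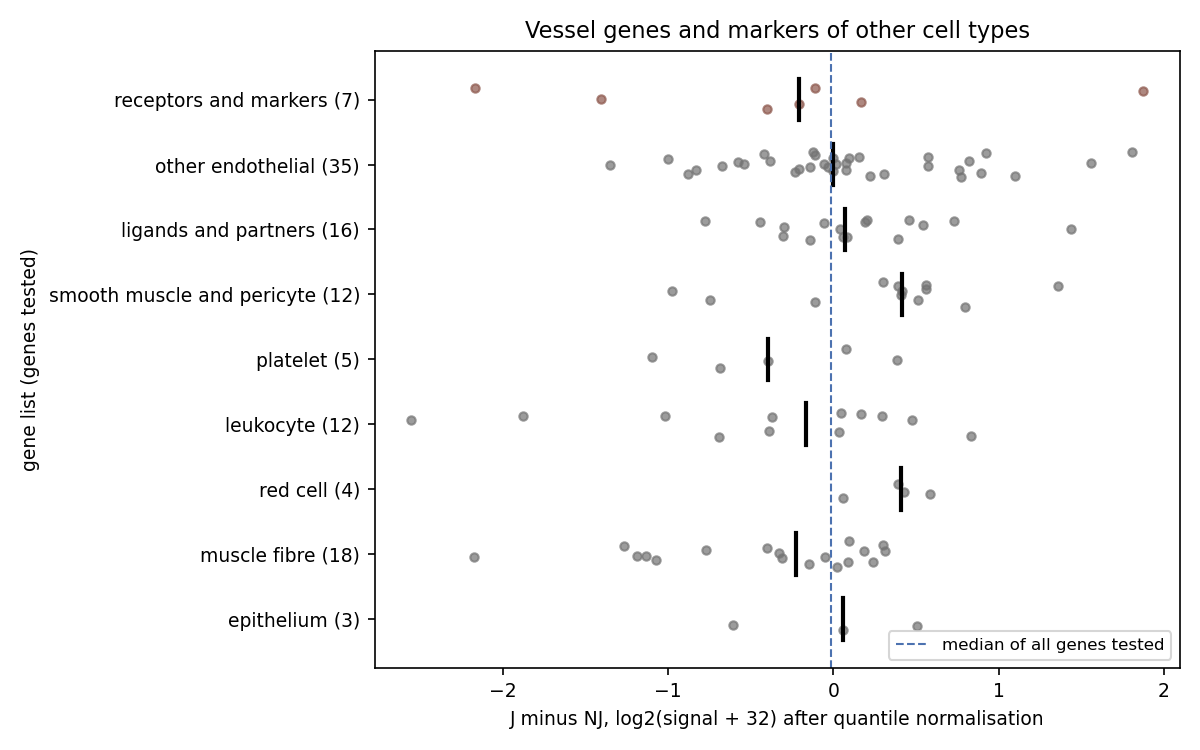
Difference J minus NJ on the log2(signal + 32) scale for every tested gene of each list, with 1 point per gene at its brightest probe set and the number of genes in parentheses. Black bars are list medians and the dashed line is the median of all genes tested (−0.01). The receptors and markers have a median of −0.21. Their ends, Ptprb at −2.17 and Vwf at 1.87, are the genes picked for their differences, and the other 5 lie between −1.40 and 0.16.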

How the data were processed

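The authors deposited 1 intensity per probe set and array, linear and above 0, and the algorithm behind it is not given in the sources used here. A trimmed mean (2% off each end) is 800.5 to 800.6 in all 4 deposited columns, which shows scaling to a common level. Of 12488 probe sets, 66 controls were left out. Names came from the platform's gene table. The Entrez IDs of all 8 genes are in RefSeq's table of GRCm38.p6. The deposited data name no build, so the only coordinates here are those of RefSeq's promoter windows.

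Values were converted to log2(intensity + 32) and quantile normalised, since column medians ranged from 8.29 to 8.67. Probe sets above the 25th percentile of mean level were fitted with limma 3.58.1 in R 4.3.3 (lmFit, eBayes with intensity trend, 2 residual degrees of freedom), with Benjamini-Hochberg adjustment over all 9316. Limma draws each variance toward a trend, so standard errors do not measure the spread of one gene's arrays alone. The brightest probe set stood for a gene in lists, which were described and not tested. Named are all probe sets of the 8 genes, every measured ligand or partner, preset genes of the other lists, and 2 nearest profiles for genes spanning over 2 log2 units. Genes, lists and the number-format term were chosen with earlier results of these data known. The limma script was tested on simulated data. Alternatives were 2 other scales, pseudocounts of 1 and 100, no filter or one at the 50th percentile, eBayes without trend, the number-format term, each array left out, averaged probe sets per gene, and the list without Vwf and Ptprb. Figures used matplotlib 3.10.9 in Python 3.11.15.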

Additional observations from a re-analysis of the deposited data

How the results depend on the processing

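No paired analysis was possible because the groups share only the replicate label 1a. The number-format term below pairs arrays by how their values were written and not by a replicate label. The count of probe sets called in limma was 0 higher and 0 lower in J under every alternative, fits without 1 array included, except with the number-format term, which gave 4 higher and 4 lower. Without 1 array, the median difference of the 7 genes lay between −0.46 and 0.21, and the number higher in J between 1 and 4. With probe sets averaged per gene, 4 of 7 were higher, and without Vwf and Ptprb 1 of 5. Of 107 comparisons of single probe sets with an alternative, 7 changed sign. Of the 83 among them on probe sets with a test, 0 changed a call. All 7 came from leaving out an array. Over the fits without 1 array, Kdr lay between −3.05 and 0.30 (positive without J 1a), the brighter Flt1 probe set between −0.50 and 0.27 (positive without J 1c, and 0.24 without NJ 1a), and the dimmer one between −0.015 and 1.06 (negative without NJ 1a). Eng lay between −0.64 and 0.21 (positive without J 1c), and Pecam1 between −0.82 and 1.21 (negative without NJ 1d, and −0.19 without J 1a). These fits have fewer arrays, and the cause was not tested further. Both probe sets of Tie1 kept their direction under every alternative run on them. So did Ptprb and Vwf, but their choice for large differences makes that no sign of stability. The number of arrays limits the precision, and signals near the brightness filter, such as those of Tek, cannot be ranked.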
